A study of Gallus gallus with 18 samples.

Results

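The data are RNA measurements on 18 Affymetrix chicken genome arrays from young chickens, sampled in brain, leg muscle and liver, and the question here is what a short, severe heat exposure did alike in all of these tissues. Birds were raised at 28 ± 1 °C for 8 days. The control group was sampled at that temperature (label T0) and the heat group after 3 h at 40 ± 1 °C (label T3), with 3 arrays per tissue and condition, each labelled as a biological replicate. The brain samples are cerebral cortex per the labels. Heat (9 arrays) was compared with control (9 arrays) with tissue as a block, on log2 of the intensity plus 16. A probe set, the group of probes that reads a transcript, entered only when its mean control intensity was at least 100 in each of brain, liver and muscle. Of 38439 probe sets that are not array controls, 13170 entered, of which 10382 carry 1 gene symbol, for 7334 different genes. Just inside the limit were ZDHHC20 (lowest control mean 100.1, log2 change 0.37) and LRP5 (100.1, 0.0090), and just outside were NQO1 (99.98, -0.10) and LOC107050617 (99.96, -0.010). The labels name 24 birds, 12 male and 12 female, and do not say which bird or sex is on which array, whether RNA was pooled, or whether the tissues of a replicate number came from the same birds. Time of sampling went with temperature in every tissue, so the effects of heat and of 3 h cannot be told apart.

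Heat unfolds proteins, and cells answer through heat shock factors, transcription factors that switch on chaperones. Small heat shock proteins hold unfolded proteins, HSP70 chaperones and their J-domain partners refold them, HSP110 proteins and BAG proteins reset HSP70, and HSP90 with its cochaperones matures kinases and steroid receptors. The endoplasmic reticulum has chaperones of its own under the unfolded protein response, and birds carry heat shock factor HSF3 as a heat-responsive member of the family.

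The tissue labels were borne out by defining transcripts: on the probe set with the highest mean, the control intensities of ALB (albumin) were 22040 to 26470 in liver and 54.1 to 65.7 in brain, those of SNAP25 (a synaptic protein) 9903 to 11110 in brain and 40.7 to 59.6 in liver, and those of MYL1 (a muscle myosin light chain) 17080 to 20020 in muscle and 16.6 to 23.6 in brain. On the muscle controls ALB read 5422, 2088 and 753, so transcripts of another tissue were present, unevenly, on controls too. Some heated arrays held more such transcripts than the controls. Over 19 hepatocyte markers the median level was 18.4% of the liver control level on brain heat 1, 0.997% and 1.71% on the other heated brain arrays and 0.509% to 0.574% on the brain controls. The same measure was 29.4% on muscle heat 3 and 0.992% to 4.45% on the muscle controls. Over 21 skeletal muscle markers it was 1.25% to 1.90% on the heated brain arrays and 0.504% to 0.597% on the brain controls, and 0.673% to 1.98% on the heated liver arrays against 0.61% to 0.921% on the liver controls. Over 15 neuron markers it was 1.3% to 2.4% on the heated liver arrays (controls 1.09% to 1.31%) and 1.3% to 3.7% on those of muscle (controls 1% to 1.12%), highest on liver heat 3 and muscle heat 3. Over 10 glia markers in brain itself it was 66.7% to 92.5% after heat and 89% to 107% in the controls. Single transcripts varied more between brain arrays. TTR read 23090, 22060 and 10470 on the brain controls and 21940, 305 and 11300 after heat. TF read 13730, 8259 and 1839 on the brain controls and 13100, 923 and 3112 after heat. What lay behind this variation was not tested. Fits without brain heat 1 and muscle heat 3, the arrays with the most hepatocyte transcripts, are given beside some of the counts and genes they moved. Beyond these fits the part of such transcripts was not tested. Since these are bulk samples, fewer cells of a type and less RNA per cell cannot be told apart.

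The common effect reached many transcripts and was mostly small. In the pooled fit 2473 probe sets were higher after heat at an adjusted p under 0.05 (18.8% of those tested) and 2443 were lower (18.5%). They stand for 1580 and 1640 genes. The median size of a called change was 0.37 on the log2 scale, against a median residual SD of 0.19 between arrays. At least a 2-fold change was reached by 22 of the higher and 13 of the lower probe sets, and at least 1.5-fold by 368 and 236. The balance of rises and falls depends on the limit, which is set on controls alone. With the limit set on the mean of control and heat, 2720 of 13420 probe sets were higher and 2316 lower. The mean difference had the same sign in each tissue for 2289 of the 2473 higher and 2323 of the 2443 lower calls. Within single tissues limma called 310 higher and 459 lower in brain, 2083 and 1104 in liver, and 561 and 789 in muscle. Of the 4916 pooled calls 47.8% were kept without liver, 60.2% without brain and 75.8% without muscle, in fits with fewer arrays. A stricter count needs no model: 447 probe sets (3.39%) had all 3 heated values above all 3 control values in each of the 3 tissues, and 467 (3.55%) had them all below. Such probe sets are called separated in each tissue here, and 446 and 467 of them were also called in the pooled fit. With 1 probe set per gene, the one with the highest mean, 18.6% of 7334 genes were called higher and 20.2% lower, with a median log2 change of -0.0075, and the gene lists below are read against these shares. Numbers in parentheses after a gene symbol are pooled log2 changes of heat minus control.

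The common effect was also read in a tissue that had no part in the fit that called the probe sets. Its control arrays did count in the limit on control intensity. The same controls enter its differences and separation here, for the called probe sets and for all. Without brain, the fit over liver and muscle called 1768 probe sets higher (13.4%) and 1449 lower (11%). In brain, 82.5% of those 1768 had a positive difference, against 45.4% of all probe sets, and 48.6% were separated, against 16.8%. Of the 1449 lower calls, 91.8% were lower in brain (54.6% of all) and 59.8% were separated (21.7% of all). Without liver, 1037 were called higher (7.87%) and 1515 lower (11.5%), and in liver 71.7% of the higher calls were separated (23.8% of all) and 52.1% of the lower ones (16.2% of all). Without muscle, 2311 were called higher (17.5%) and 1974 lower (15%), and in muscle 31.1% and 38.5% of them were separated, against 10.1% and 13% of all. The median log2 change in the tissue left out was 0.24 and -0.28 in brain, 0.53 and -0.32 in liver, and 0.28 and -0.32 in muscle, for the higher and the lower calls. The arrays of the tissue left out may come from the same birds as the others, and no test was made of these shares. Across the 13170 probe sets, which are not independent, the log2 changes of brain and liver correlated at 0.52, those of brain and muscle at 0.52 and those of liver and muscle at 0.58.

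**Figure D1:**
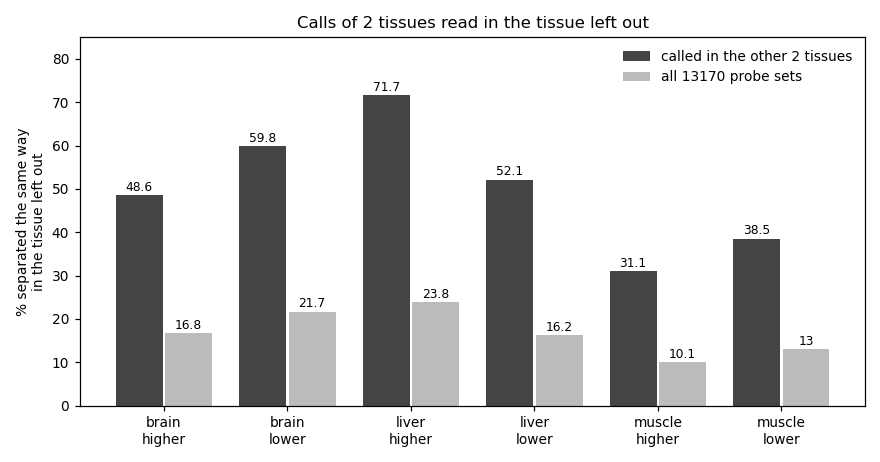
Bars give the percent of probe sets whose 3 heated values all lay above (higher) or all below (lower) the 3 control values of the tissue left out, for probe sets called in the pooled fit over the other tissues (dark) and for all 13170 (light). The dark bars stand between 31.1% (muscle, higher) and 71.7% (liver, higher), and each is above its light partner, which runs from 10.1% to 23.8%.

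The largest common rise was in HSPB9, a small heat shock protein. Brain arrays for HSPB9 read 332, 152 and 389 in the controls and 6690, 4268 and 4188 after heat. In liver HSPB9 read 606, 544 and 466 in the controls and 12010, 13860 and 14870 after heat, and in muscle 3621, 2740 and 2127 and 8538, 5962 and 10100. Heated and control arrays did not overlap in any tissue. The pooled rise was 10.7-fold (log2 3.42, SE 0.34, adjusted p 1.24e-05), with a brain value of 4.11, a liver value of 4.62 and a muscle value of 1.53 on the log2 scale, and the heat effect differed between tissues (limma interaction, adjusted p 0.00238). Muscle had the highest control level, and its change was the smallest: muscle minus brain was -2.58 (adjusted p 0.0138), and liver minus muscle was 3.09 (adjusted p 0.00259). The second HSPB9 probe set, with higher intensities in every group, gave a pooled log2 rise of 2.05 and was separated in each tissue too.

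BAG3, a cochaperone that links HSP70 to small heat shock proteins, came next among the chaperones. In brain, BAG3 read 271, 210 and 231 in the controls and 971, 818 and 1090 after heat. In liver BAG3 read 439, 233 and 224 in the controls and 965, 1053 and 826 after heat, and in muscle 3182, 1915 and 1672 and 4239, 4644 and 5159. The groups did not overlap in any tissue. The pooled rise was 2.97-fold (log2 1.57, SE 0.15, adjusted p 1.24e-05), and its other probe set gave log2 1.43. HSPA2, an HSP70 chaperone with high control levels, was also separated in each tissue. The HSPA2 controls read 4523, 4348 and 4471 in brain, 3585, 2153 and 2747 in liver and 10720, 9606 and 7745 in muscle. The heated HSPA2 values, in the same order of tissues, were 12500, 11910 and 13300, then 6649, 5086 and 5475, then 11540, 11680 and 11050. Its rise was 1.92-fold (log2 0.94, SE 0.14, adjusted p 1.43e-04), with a brain value of 1.49, a liver value of 1.04 and a muscle value of 0.3, and the muscle effect minus that of brain was -1.19 (adjusted p 0.0279).

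HSPA4 is an HSP110-type exchange factor that resets HSP70. On the brain arrays HSPA4 read 1393, 1472 and 1230 in the controls and 2403, 2152 and 2298 after heat. In liver HSPA4 read 637, 772 and 686 in the controls and 1315, 1096 and 1113 after heat, and in muscle 2094, 1827 and 1426 and 2432, 2511 and 3559. No heated value fell among the controls of its tissue. The pooled rise was 1.64-fold (log2 0.71, SE 0.088, adjusted p 4.22e-05), with a brain value of 0.74, a liver value of 0.74 and a muscle value of 0.66. CHORDC1, an HSP90-binding cochaperone, followed the same pattern. The CHORDC1 controls read 283, 386 and 356 in brain, 465, 450 and 421 in liver and 339, 341 and 368 in muscle. The heated CHORDC1 values, in the same order of tissues, were 719, 786 and 800, then 756, 801 and 750, then 581, 552 and 499. It was separated in each tissue, with a pooled rise of 1.79-fold (log2 0.84, SE 0.084, adjusted p 1.24e-05). FKBP4, an immunophilin that works with HSP90 on steroid receptors, rose 1.55-fold (log2 0.64, SE 0.069, adjusted p 2.14e-05) from controls of 2140 to 3241 over the tissues to heated values of 3620 to 5120. AHSA2, a relative of the HSP90 ATPase activator AHSA1, rose 1.75-fold (log2 0.81, SE 0.095, adjusted p 2.97e-05), and ST13P5, named for its likeness to the HSP70 cochaperone ST13, rose 1.62-fold (log2 0.7, SE 0.078, adjusted p 2.37e-05). Each of these was separated in all 3 tissues.

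**Figure D2:**
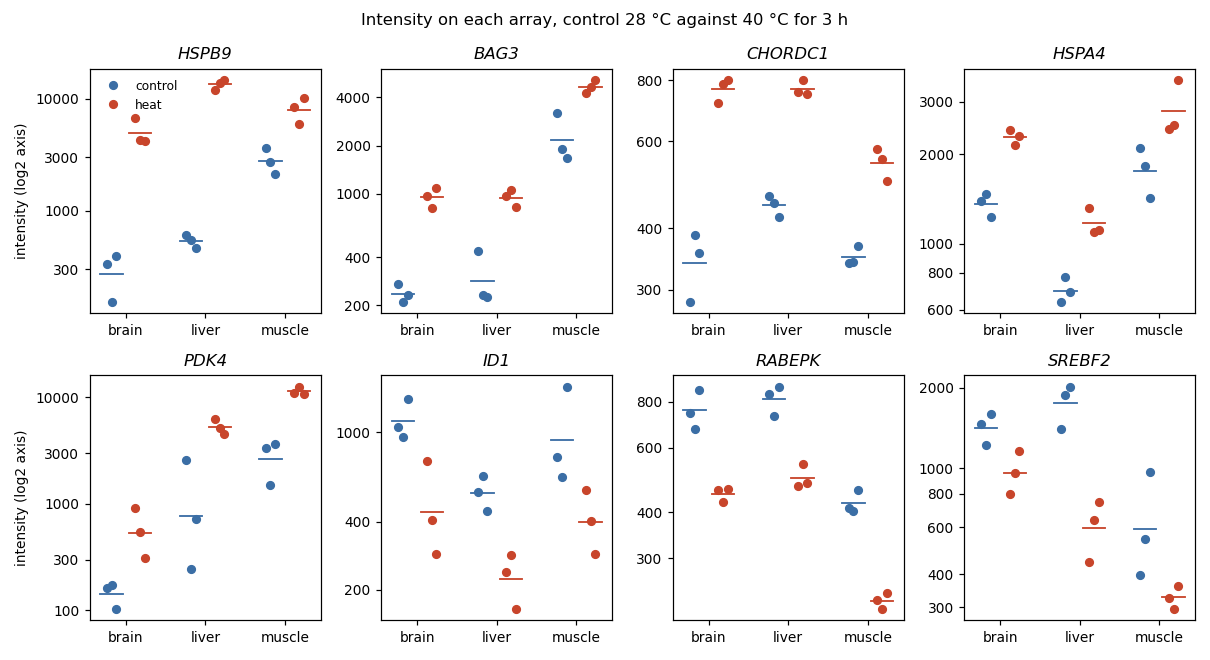
Intensity on every array (log2 axis) for 8 genes in brain, liver and muscle, blue for control at 28 °C and red for 40 °C for 3 h, with 3 points per group and a line at their geometric mean. HSPB9, BAG3, CHORDC1, HSPA4 and PDK4 are higher and ID1, RABEPK and SREBF2 lower on all heated arrays of each tissue, and the pooled log2 changes run from 3.42 for HSPB9 to -1.22 for ID1.

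Over the list of cytosolic heat shock chaperones, 20 of the 28 genes on the array passed the limit, of which 14 rose (70%, against 18.6% of all genes) and 1 fell. HSPH1 is among the 8 that did not pass. The median pooled change of the 20 was 0.41, with tissue medians of 0.49 (liver), 0.38 (brain) and 0.21 (muscle). In fits with fewer arrays 7 of the 20 rose without brain, 10 without liver and 14 without muscle. Of all probe sets 13.4%, 7.87% and 17.5% were called higher in those fits. Besides the genes above, the J-domain proteins DNAJA4 (0.66), DNAJA1 (0.44), DNAJB4 (0.42), DNAJB6 (0.41) and DNAJA2 (0.33), the HSP110 protein HSPA4L (0.57), the ubiquilin UBQLN1 (0.41), HSP90AA1, a cytosolic HSP90 (0.43), HSPB1 (0.4) and HSPA14 (0.25) rose. The HSPB1 call was lost without brain heat 1 and muscle heat 3 (adjusted p 0.0908), when 13 members rose, and with arrays of the same condition and replicate number as a random block (0.058). The HSPA14 call was lost in a limma fit of 3 against 3 means over tissues (adjusted p 0.115). Without brain, where fewer arrays remain, the calls of DNAJA4, DNAJA1, DNAJA2, HSPA4L, HSP90AA1, HSPB1 and HSPA14 were lost. DNAJA4 had a brain value of 1.29, a liver value of 0.73 and a muscle value of -0.042, and its effect differed between tissues (adjusted p 0.00427). HSP90AA1 read 6022 to 6886 on the brain controls and 9186 to 10010 on the heated brain arrays, while its liver groups overlapped.

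Some members stood apart from the rest of that list. HSP90AB1, the constitutive cytosolic HSP90, fell (log2 -0.32, SE 0.094, adjusted p 0.0125), with a brain value of -0.13, a liver value of -0.63 and a muscle value of -0.2, and this call was lost with the 3 against 3 means (adjusted p 0.0536). HSPA8, the constitutive HSP70, was not called (adjusted p 0.319). The HSPA8 controls read 11650, 11060 and 11070 in brain, 10490, 7544 and 7618 in liver and 7448, 6314 and 4363 in muscle. The heated HSPA8 values, in the same order of tissues, were 13730, 14280 and 14080, then 5698, 6359 and 8811, then 2728, 3269 and 6071. The heated values were above all controls in brain only, and its log2 differences were a brain value of 0.32, a liver value of -0.3 and a muscle value of -0.64. BAG5 (0.17), BAG1 (0.16), BAG2 (-0.05) and DNAJB2 (-0.15) were not called either, with adjusted p values from 0.108 to 0.640. Of 4 measured genes on the heat shock factor list, HSF3 rose slightly in its own message (log2 0.35, SE 0.092, adjusted p 0.00656) and was separated in each tissue. HSBP1, an inhibitor of the factors (0.025), HSF2 (-0.15) and HSF4 (-0.26, adjusted p 0.0525) were not called.

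**Figure D3:**
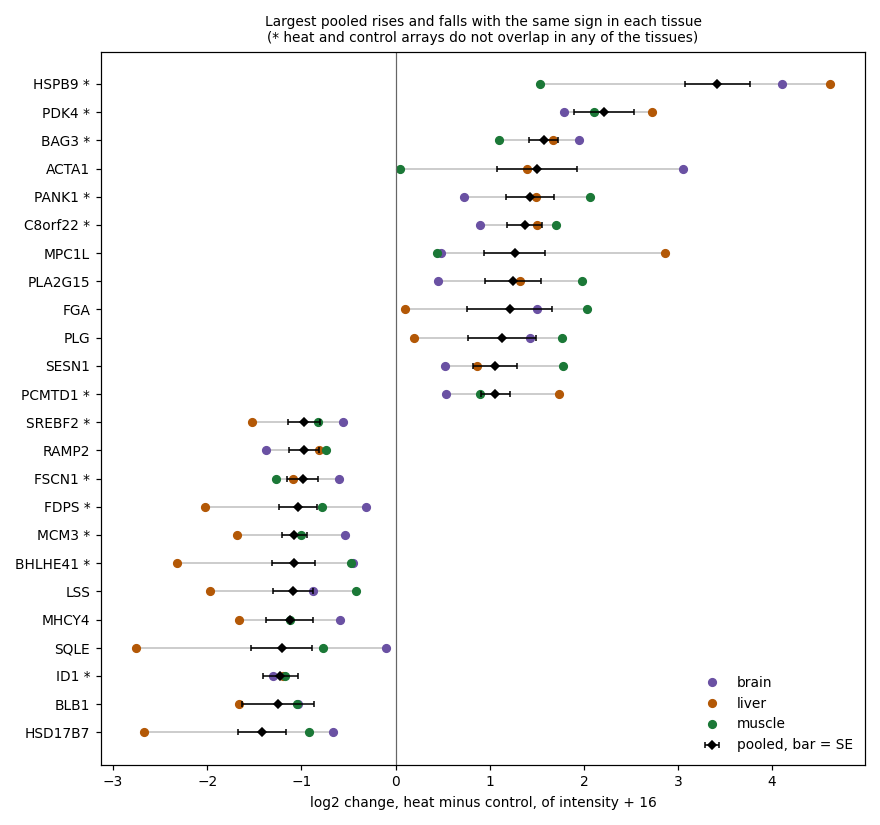
Log2 change of heat minus control for the 12 largest pooled rises and 12 largest pooled falls among called genes with the same sign in each tissue, as coloured points per tissue and a black diamond with its SE for the pooled value. The pooled values run from 3.42 (HSPB9) to -1.42 (HSD17B7), ID1 has the closest tissue values of all genes shown (-1.30, -1.20 and -1.17), and ACTA1, FGA and SQLE have a tissue near 0.

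Cochaperones of HSP90 went both ways: of 15 measured, 6 rose (40%) and 5 fell (33.3%), with a median of 0.13. CHORDC1, AHSA2, FKBP4, FKBP5 (0.43), SUGT1 (0.4) and TSC1 (0.31) rose, and NUDCD3 (-0.54), TTC4 (-0.38), the ubiquitin ligase STUB1 (-0.37), FKBP8 (-0.32) and STIP1, which bridges HSP70 and HSP90 (-0.18), fell. In the cytosolic chaperonin and prefoldin list, which folds actin and tubulin, 3 of 18 rose, among them CCT2 (0.28), and 3 fell, among them PFDN2 (-0.48). These shares of 16.7% each are near those of all genes (18.6% higher and 20.2% lower). Of 16 mitochondrial chaperones and proteases, 4 rose (25%) and 5 fell (31.2%), beside the same shares of all genes. HSPD1, the mitochondrial HSP60, rose 1.51-fold (log2 0.59, SE 0.079, adjusted p 5.91e-05), from controls of 2321 to 4131 over the tissues to heated values of 3482 to 7303, and was separated in each tissue. Its partner HSPE1 (0.074, adjusted p 0.491) was not called, and the mitochondrial HSP90 TRAP1 (-0.37) and the protease HTRA2 (-0.49) fell.

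Chaperones of the endoplasmic reticulum rose in part. Of 39 measured, 12 rose (30.8%, against 18.6% of all genes) and 2 fell (5.13%, against 20.2%). The median was 0.092, against -0.0075 over all genes. HSP90B1 (0.88), CRELD2 (0.8), PDIA6 (0.74), DNAJC3 (0.52), PDIA4 (0.49) and SEL1L (0.49) were among the rises, and PDIA6 and DNAJC3 were separated in each tissue. CRELD2, an unfolded protein response target, read 320 to 342 on the brain controls and 840 to 882 on the heated brain arrays. The main lumenal HSP70, HSPA5, was not called (0.37, adjusted p 0.0954), with a brain value of 1.08, a liver value of 0.15 and a muscle value of -0.13. SDF2 (-0.68) and SIL1 (-0.27) fell. The mean over the list lay at 0.23 to 0.34 on the heated brain arrays, above all brain controls, while the groups overlapped in liver and in muscle. In fits with fewer arrays 5 of the 39 rose without brain (median 0.0099), 9 without liver and 13 without muscle. Of all probe sets 13.4%, 7.87% and 17.5% were called higher in those fits. Among 15 ATF4 and amino acid response genes, 4 rose (26.7%, against 18.6% of all genes) and none fell (20.2% of all genes) in the limma fit. All 4 were separated in each tissue: the serine synthesis enzymes PSPH (0.98) and PSAT1 (0.72), the amino acid transporter SLC38A2 (0.67) and CEBPG (0.37). Without brain heat 1 and muscle heat 3, 5 members of that list rose and 2 fell. ATF4 itself was not called (0.061, adjusted p 0.728).

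The largest rise outside the chaperones was that of PDK4, the kinase that shuts off pyruvate dehydrogenase and so spares glucose. Brain arrays for PDK4 read 164, 174 and 103 in the controls and 909, 539 and 312 after heat. In liver PDK4 read 2559, 244 and 725 in the controls and 6256, 5099 and 4479 after heat, and in muscle 3349, 1496 and 3626 and 10890, 12610 and 10740. The controls varied widely in liver, and still no heated array fell among them in any tissue. PDK4 rose 4.62-fold (log2 2.21, SE 0.32, adjusted p 1.17e-04), with a brain value of 1.79, a liver value of 2.73 and a muscle value of 2.11 and no call of a difference between tissues (adjusted p 0.763). PANK1, which starts coenzyme A synthesis, rose 2.69-fold (log2 1.43, SE 0.26, adjusted p 4.96e-04) and was separated in each tissue, with brain controls of 262 to 270 against heated values of 388 to 519, liver controls of 923 to 3750 against 3876 to 6127, and muscle controls of 103 to 372 against 633 to 1083. C8orf22 (1.37) and PCMTD1 (1.06) rose and were separated in each tissue. MPC1L, a relative of the mitochondrial pyruvate carrier (1.26), the lysosomal phospholipase PLA2G15 (1.25) and SESN1, a stress protein that restrains the growth kinase MTOR (1.06), rose with overlap in at least 1 tissue.

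PDK4 is a known target of FOXO factors and of glucocorticoids, and lists of both were measured. On the insulin, IGF and FOXO list 11 of 22 measured genes rose (50%, against 18.6% of all genes) and 1 fell (4.55%, against 20.2%). The median was 0.28, with -0.052 in brain, 0.47 in liver and 0.30 in muscle. IRS4 (0.99) and IRS2 (0.81), adaptors of the insulin receptor, rose. IRS4 had a brain value of 0.1, a liver value of 1.43 and a muscle value of 1.46, a difference between tissues (interaction adjusted p 0.00879), and IRS2 had a brain value of -0.064, a liver value of 1.67 and a muscle value of 0.83 (interaction adjusted p 0.0351). FOXO3 (0.46), INSR (0.31), AKT1 (0.53), IGF2R (0.51) and RPS6KB1 (0.42) rose, the last pair separated in each tissue, and RPTOR (-0.2) fell. The other RPS6KB1 probe set was not called (-0.079, limma adjusted p 0.45). Of 16 glucocorticoid-induced genes 6 rose (37.5%, against 18.6% of all genes) and 1 fell (6.25%, against 20.2%), with a median of 0.19. Besides PDK4, SESN1, FOXO3 and FKBP5 the rises were FBXO32, a muscle ubiquitin ligase (0.76), and NFKBIA, the inhibitor of NF-kappa-B (0.61). FOXO3 is counted on both lists, and whether either route raised PDK4 was not tested. KLF9 (-0.45), also a glucocorticoid target, fell and was separated in each tissue. The brain median of this list was -0.050. Without brain heat 1 and muscle heat 3, 12 genes of the insulin list rose and 2 fell.

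Clock genes changed in both directions. Of 14 measured, 6 rose (42.9%, against 18.6% of all genes) and 3 fell (21.4%, near the 20.2% of all genes). The 3 h between the samplings cannot be told apart from heat here. The activators ARNTL (0.7), CLOCK (0.39) and RORA (0.6), the repressor CRY1 (0.76), NFIL3 (0.89) and the kinase CSNK1D (0.32) rose. The repressors BHLHE40 (-0.82) and BHLHE41 (-1.08) and the activator TEF (-0.19) fell. CRY1 read 1161 to 1449 on the brain controls and 1665 to 1852 on the heated brain arrays, 839 to 924 and 1327 to 2691 in liver, and 1390 to 1958 and 2557 to 3069 in muscle. CRY1, BHLHE40 and BHLHE41 were separated in each tissue, and BHLHE41 had a brain value of -0.45, a liver value of -2.33 and a muscle value of -0.47. The other BHLHE40 probe set was not called (-0.095, limma adjusted p 0.30) and had a brain value of 0.042.

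Several nuclear and RNA-processing genes rose and were separated in each tissue. Genes were named in part for such separation with a small p, so like changes over the tissues are not particular to this class. CLK1, a kinase of splicing factors, read 260 to 272 on the brain controls and 409 to 437 after heat, 297 to 311 and 414 to 522 in liver, and 215 to 269 and 349 to 387 in muscle. Its pooled rise was 1.53-fold (log2 0.61, SE 0.063, adjusted p 1.24e-05), with a brain value of 0.62, a liver value of 0.62 and a muscle value of 0.6. CLK4 (0.67), SLU7 (0.79), PRPF4B (0.75), RBM25 (0.86) and CDC40 (0.45), all of the splicing machinery or its control, were separated in each tissue too. So were the DNA repair genes RAD50 (0.74) and APLF (0.81), the chromatin reader ZMYND8 (0.78), CCAR1 (0.75), ATXN7L1 (0.56), ORAOV1 (0.51) and RABGGTB, a subunit of the enzyme that lipidates Rab proteins (0.77). Of all 51 measured splicing factors 12 rose and 12 fell (23.5% each, near the 18.6% and 20.2% of all genes). Among the falls EFTUD2 (-0.5), PRPF19 (-0.55) and SNRPA1 (-0.55) were separated in each tissue. Among 19 temperature-sensitive RNA-binding genes 5 rose (26.3%) and 4 fell (21.1%), beside the same shares of all genes. The cold-inducible RBM3 was among the falls (log2 -0.51, SE 0.1, adjusted p 9.61e-04) and was separated in each tissue. PRPF4B has 4 measured probe sets, of which 3 were called higher, and RBM25 has 4, of which 2 were.

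**Figure D4:**
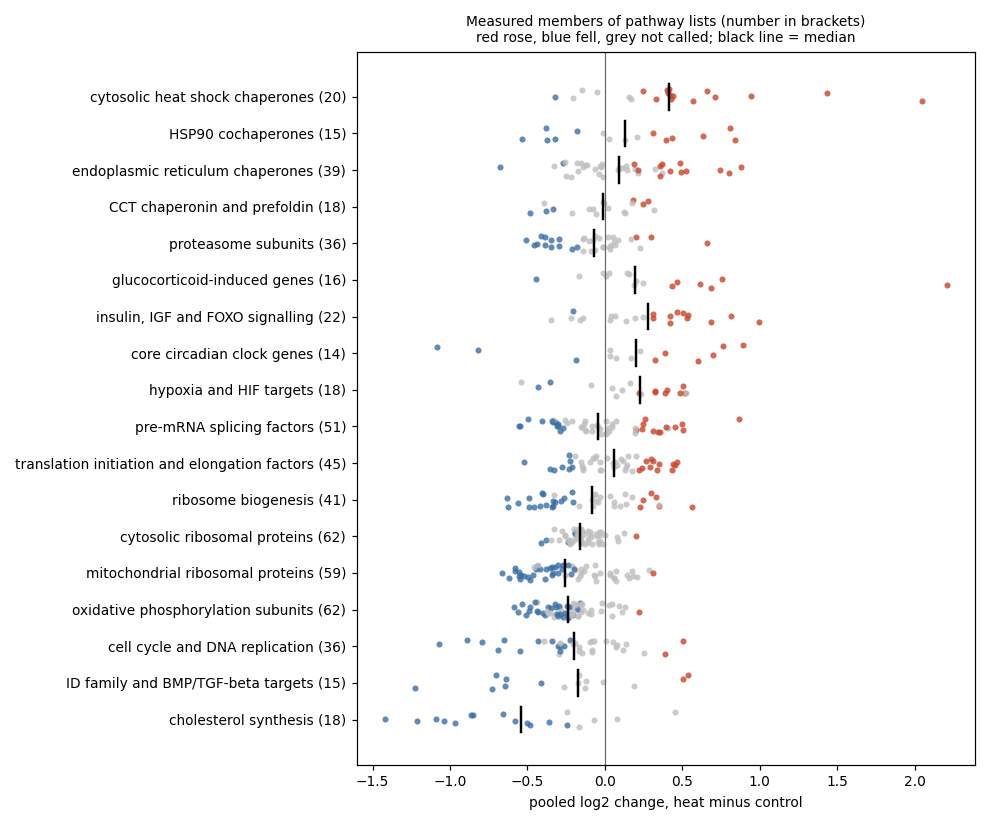
Pooled log2 change of each measured member of 18 pathway lists, with the number measured in brackets, red for members that rose, blue for those that fell and grey for those not called, and a black line at the median. The cytosolic chaperones have the highest median (0.41) and cholesterol synthesis the lowest (-0.54), and in the list of HSP90 cochaperones 6 members rose and 5 fell.

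Among the falls, RABEPK, a binding partner of the trafficking protein Rab9, had the smallest p of all probe sets. In brain, RABEPK read 747, 676 and 864 in the controls and 460, 426 and 464 after heat. In liver RABEPK read 838, 733 and 880 in the controls and 472, 540 and 481 after heat, and in muscle 410, 403 and 459 and 230, 218 and 241. The groups did not overlap in any tissue. RABEPK fell 1.69-fold (log2 -0.76, SE 0.068, adjusted p 8.86e-06), with a brain value of -0.73, a liver value of -0.7 and a muscle value of -0.84. RNF175, a ring-finger protein, fell 1.61-fold (log2 -0.69, SE 0.069, adjusted p 1.24e-05), with brain controls of 246 to 254 against 159 to 181 after heat, liver controls of 303 to 342 against 169 to 184, and muscle controls of 170 to 236 against 103 to 124. Also among the falls with the smallest p, and separated in each tissue, were C12orf10 (-0.86), the sulfate donor transporter SLC35B2 (-0.91), BABAM1, of a DNA damage complex (-0.71), CHPF, which builds chondroitin chains (-0.68), SUMF2 (-0.6), RBPMS (-0.6), the riboflavin transporter SLC52A3 (-0.59), CYB5D2 (-0.58) and LPCAT3 (-0.53). BCL2L1, which blocks apoptosis, fell 1.89-fold (log2 -0.92, SE 0.11, adjusted p 4.22e-05), with a brain value of -0.48, a liver value of -1.4 and a muscle value of -0.88.

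ID1 is a known target of BMP signals and blocks transcription factors of the helix-loop-helix kind. On the brain arrays ID1 read 1053, 948 and 1400 in the controls and 745, 408 and 287 after heat. In liver ID1 read 543, 638 and 446 in the controls and 240, 286 and 164 after heat, and in muscle 780, 633 and 1593 and 553, 404 and 288. Heated arrays were below all controls in each tissue. The fall was 2.34-fold (log2 -1.22, SE 0.19, adjusted p 1.68e-04). Over the ID and BMP/TGF-beta list 6 of 15 measured genes fell and 2 rose: with ID1, ID3 (-0.64), ID4 (-0.65), HES4 (-0.73), TGFB3 (-0.7) and TGFBI (-0.41) fell, while the signal transducers SMAD1 (0.53) and SMAD5 (0.5) rose. ID2 (-0.26, adjusted p 0.0526) was not called. FSCN1, which bundles actin, fell 1.98-fold (log2 -0.99, SE 0.16, adjusted p 2.76e-04) and was separated in each tissue. RAMP2, a partner of adrenomedullin receptors that also stands on the endothelial marker list, fell 1.96-fold (log2 -0.97, SE 0.16, adjusted p 2.76e-04). Of the 13 measured endothelial markers 3 rose (23.1%), among them PECAM1 (0.97), and 4 fell (30.8%), among them SOX18 (-0.71), with a median of -0.064. These shares stand beside 18.6% higher and 20.2% lower of all genes.

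Cholesterol synthesis was the list with the lowest pooled median. Of 18 measured genes 13 fell (72.2%, against 20.2% of all genes) and none rose in the limma fit. The median was -0.54, with -0.31 in brain, -0.85 in liver and -0.31 in muscle. The list mean on the heated arrays was below all controls in brain and liver and overlapped them in muscle. In fits with fewer arrays 12 fell without brain, 7 without liver and 14 without muscle. SREBF2, the transcription factor that drives the pathway, is a member. Brain arrays for SREBF2 read 1463, 1221 and 1595 in the controls and 801, 956 and 1158 after heat. In liver SREBF2 read 1404, 1882 and 2022 in the controls and 442, 639 and 749 after heat, and in muscle 396, 541 and 967 and 326, 296 and 362. The groups did not overlap in any tissue. SREBF2 fell 1.96-fold (log2 -0.97, SE 0.17, adjusted p 3.99e-04), with no call of a difference between tissues (adjusted p 0.272). The enzymes HSD17B7 (-1.42), SQLE (-1.21), LSS (-1.09), FDPS (-1.04), NSDHL (-0.86), DHCR7 (-0.85) and FDFT1 (-0.66) fell with it, and of these FDPS was separated in each tissue. The liver values were the largest: SQLE had a brain value of -0.1, a liver value of -2.76 and a muscle value of -0.77, and 7 of the 18 genes were called for a difference between tissues. SCAP, which escorts SREBF2 (-0.58), and MVD (-0.5) also fell, SCAP with a brain value of -0.67, a liver value of -0.62 and a muscle value of -0.46, and MVD was separated in each tissue. HMGCS1, the entry enzyme, was not called (0.45, adjusted p 0.0531). At the intensities of some muscle arrays (LSS 69.6 to 185, SQLE 51.1 to 236) the added 16 shortens the changes. In the related list of fatty acid synthesis 1 of 14 rose and 2 fell, FASN (-0.41, adjusted p 0.0483) and SREBF1 (-0.2). The FASN call was lost with the random block (adjusted p 0.0643), and that of SREBF1 with the 3 against 3 means (0.0756). Without brain heat 1 and muscle heat 3, 14 cholesterol synthesis genes fell and 1 rose, and 4 fatty acid synthesis genes fell. In that fit the FASN change was -0.55 (limma, adjusted p 0.00426).

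Of 36 measured genes of DNA replication and the cell cycle, 13 fell (36.1%, against 20.2% of all genes) and 2 rose (5.56%, against 18.6%). This list had a liver median of -0.35, a muscle median of -0.10 and a brain median of -0.018. The fit without liver, which has fewer arrays, called 6 of its genes lower and 2 higher. MCM3, a subunit of the replicative helicase, was separated in each tissue. The MCM3 controls read 108, 112 and 130 in brain, 708, 836 and 715 in liver and 171, 222 and 253 in muscle. The heated MCM3 values, in the same order of tissues, were 80.8, 66.7 and 79, then 243, 206 and 221, then 88.7, 98.9 and 108. Brain controls were close to the limit of 100. MCM3 fell 2.1-fold (log2 -1.07, SE 0.13, adjusted p 3.28e-05), with a brain value of -0.54, a liver value of -1.68 and a muscle value of -1.0 and a call of a difference between tissues (adjusted p 0.00974). MCM5 (-0.89), MCM2 (-0.79), the transcription factor E2F1 (-0.69), RFC5 (-0.65), TK1 (-0.55) and RRM1 (-0.43) fell as well. MKI67 (0.5) and BUB1B (0.39) rose.

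**Figure D5:**
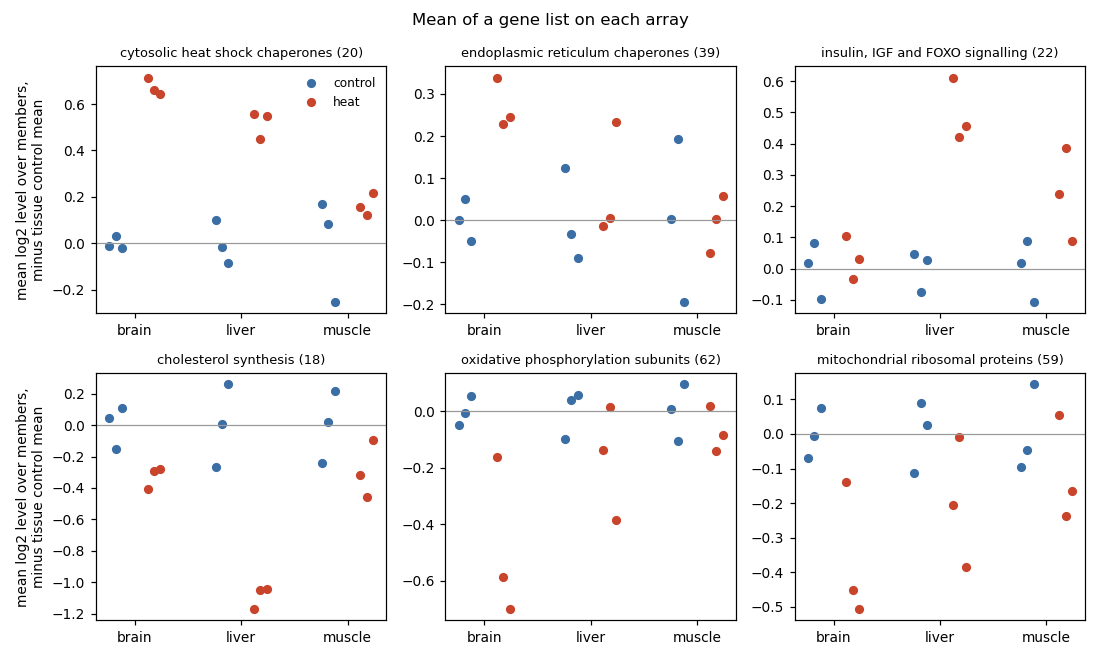
Mean log2 level over the measured members of 6 lists (number in brackets) on each array, set to the control mean of its tissue, blue for control and red for heat. Cytosolic chaperone means are 0.64 to 0.71 on the heated brain arrays and 0.45 to 0.56 on those of liver, and overlap the controls in muscle. Cholesterol synthesis lies between -1.17 and -1.04 on the heated liver arrays and overlaps the controls in muscle too.

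Many components of mitochondria fell by small amounts. Of 59 mitochondrial ribosomal proteins 29 fell (49.2%, against 20.2% of all genes) and 1 rose (1.69%, against 18.6%). Their median was -0.26, and MRPL16 (-0.67), MRPL10 (-0.58) and MRPL24 (-0.55) were among the falls. Of 62 subunits of oxidative phosphorylation 28 fell (45.2%) and 1 rose, with a median of -0.24, among the falls NDUFA13 (-0.59), NDUFB8 (-0.4) and ATP5B (-0.32). These lists were uneven over tissues and arrays: the oxidative phosphorylation medians were -0.48 in brain, -0.21 in liver and -0.050 in muscle. The mean of that list was -0.16 on brain heat 1 and -0.59 and -0.70 on the other heated brain arrays, and its heated and control values overlapped in liver and in muscle. Of its members 2 were separated in each tissue, and 33 fell without brain heat 1 and muscle heat 3. In fits with fewer arrays 5 of the 62 fell without brain, 10 without liver and 34 without muscle. For the mitochondrial ribosomal proteins these counts were 15, 16 and 28 of 59. Of all probe sets 11%, 11.5% and 15% were called lower in those fits. The ratio of 3' to 5' actin probe sets, a sign of RNA quality, was 1.35 on brain heat 1. It was 1.17 and 1.08 on the other heated brain arrays and 1.33 to 1.39 on the brain controls. The same ratio for EF1A was 1.4, 1.32 and 1.36 on the heated brain arrays and 1.47 to 1.56 on the controls. For GAPDH it was 1.04 to 1.08 on the heated brain arrays and 1.06 to 1.11 on the controls. The actin ratio varied more in liver (controls 1.42 to 2.21, heated 1.52 to 2.77) and in muscle (controls 2 to 3.43, heated 2.36 to 3.11). The part of RNA quality in the falls of these lists was not tested. Cytosolic ribosomal proteins had a median of -0.16. Of 62, 7 fell (11.3%, below the 20.2% of all genes) and 1 rose (1.61%, against 18.6%). Their count moved to 15 falls and no rise in the limma fit without brain heat 1 and muscle heat 3, and to 2 falls in a fit of 3 against 3 means over tissues. Their brain median was -0.45, against -0.024 in liver and 0.013 in muscle.

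Genes that assemble ribosomes in the nucleolus were measured as a list of their own. Of 41 measured 18 fell (43.9%) and 6 rose, and 6 of the falls were separated in each tissue, among them IMP3 (-0.63), WDR12 (-0.49) and RRP9, of the U3 ribonucleoprotein. RRP9 read 339 to 385 on the brain controls and 253 to 263 after heat, 219 to 239 and 141 to 165 in liver, and 296 to 315 and 214 to 232 in muscle, a 1.4-fold fall (log2 -0.49, SE 0.056, adjusted p 2.70e-05). DDX10 (0.56) and GNL3 (0.25) rose. Of 45 translation factors 12 were higher (26.7%, against 18.6% of all genes), among them EIF3A (0.46) and EIF3M (0.45). Lower were 8 (17.8%, against 20.2%), among them EIF2B4 (-0.52), a subunit of the exchange factor for EIF2. Of 18 transfer RNA synthetases 4 rose (22.2%), among them CARS (0.61), and 5 fell (27.8%), beside 18.6% and 20.2% of all genes. FARSA (-0.67), AARS1 (-0.65) and SARS1 (-0.45) were among the falls and were separated in each tissue. Of 36 proteasome genes 12 fell (33.3%), among them PSMB3 (-0.51), PSMD2 (-0.46) and PSMA5 (-0.41), and 3 rose, among them the activator PSME4 (log2 0.66, SE 0.10, adjusted p 1.66e-04), separated in each tissue.

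Other stress and immune lists went both ways, to be read beside the 18.6% of all genes called higher and 20.2% called lower. Of 30 antioxidant genes 2 rose, CAT (0.48) and GPX1 (0.45), and 8 fell, among them GSR, which reduces glutathione (-0.52), GPX4 (-0.43) and PRDX6 (-0.35). Of 18 hypoxia-linked genes 8 rose, among them BNIP3L (0.51) and KDM3A (0.4), and 2 fell, with a median of 0.23 and 4 calls of a difference between tissues. The hypoxia list had a liver median of 0.35, a muscle median of 0.099 and a brain median of 0.0017. The fit without liver, which has fewer arrays, called 1 of its genes higher and 2 lower. Immediate early genes gave 1 rise, BTG1 (0.47), and 3 falls, among them SRF (-0.61), of 18. Interferon-response genes gave 4 rises, among them IFIT5 (1.0) and the kinase EIF2AK2 (0.51), and 6 falls, among them the peptide transporter TAP1 (-0.72) and IFI35 (-0.59), of 17. Without brain heat 1 and muscle heat 3 there were 3 rises and 8 falls. Of 13 NF-kappa-B and cytokine feedback genes 3 rose, among them NFKBIZ (0.64), and 3 fell: SOCS3 (-0.71), STAT3 (-0.42) and CISH (-0.28). The MHC genes BLB1 (-0.92 and -1.25 on different probe sets) and MHCY4 (-1.13) fell, and the larger BLB1 call was lost with the 3 against 3 means (adjusted p 0.0938). BLB1 has 5 measured probe sets, of which 2 were called, and its probes can pick up other members of the family.

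A few further lists had calls in both directions, as had all genes (18.6% higher and 20.2% lower). Rises and falls were counted in fatty acid oxidation (5 and 3 of 18), the tricarboxylic acid cycle (5 and 6 of 19), histones and chromatin remodelling (6 and 6 of 30), collagens and matrix (5 and 4 of 30), apoptosis and p53 targets (5 and 3 of 18), ubiquitin and segregase genes (3 and 2 of 23), and autophagy (5 and 2 of 24). In the last of these ATG5, needed for autophagosome growth, rose (log2 0.57, SE 0.097, adjusted p 3.58e-04). SERPINH1, a collagen chaperone known to respond to heat, rose 1.47-fold (log2 0.55, SE 0.10, adjusted p 5.17e-04) and was separated in brain and liver. Glycolysis gave no rise and 4 falls of 18 in the limma fit, among them ALDOC (-0.35) and the glucose transporter SLC2A1 (-0.43), and the actin and tubulin cytoskeleton gave 1 rise and 7 falls of 30.

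The heat effect differed between tissues for 267 probe sets (2.03%), of which 143 were also called in the pooled fit and 88 of those had the same sign in each tissue. For these the pooled value is a mean of unlike tissues. ASB2, a muscle ubiquitin ligase adaptor, is the clearest case. In brain, ASB2 read 161, 141 and 142 in the controls and 156, 171 and 180 after heat. In liver ASB2 read 123, 144 and 120 in the controls and 118, 123 and 115 after heat, and in muscle 184, 253 and 300 and 2250, 2443 and 1647. The heated arrays stood apart in muscle alone, and its pooled log2 of 1.03 is the mean of a brain value of 0.17, a liver value of -0.11 and a muscle value of 3.03 (interaction adjusted p 1.14e-06). HSD17B7, BHLHE41, SEMA6D, HDAC4, TK1, MCM2 and MCM3 had their largest change in liver.

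Transcripts that belong to another tissue passed the limit as well and are among the largest pooled changes. FGA (fibrinogen alpha chain) and PLG (plasminogen), both made by hepatocytes, had pooled rises of 1.21 and 1.13. The FGA controls read 138, 105 and 110 in brain, 14830, 13160 and 15330 in liver and 541, 212 and 92.9 in muscle. The heated FGA values, in the same order of tissues, were 1425, 144 and 216, then 15970, 14100 and 16450, then 516, 447 and 3854. Brain heat 1 and muscle heat 3 stood far above the other arrays of their tissues, and liver differed little. Without those arrays the FGA change was 0.53 and not called (adjusted p 0.0934), and that of PLG was 0.56 (adjusted p 0.0140). FGA was also not called with the random block (adjusted p 0.0551). ACTA1, the skeletal muscle actin, had a pooled rise of 1.5 with a brain value of 3.05, a liver value of 1.4 and a muscle value of 0.051, and its muscle arrays read 23090 to 25730 throughout. Without brain heat 1 and muscle heat 3 the ACTA1 rise was 1.36 (limma, adjusted p 0.0196). Those arrays were picked by hepatocyte transcripts, so that fit cannot speak to muscle transcripts in other tissues. ACTA1 read 139, 197 and 206 on the brain controls and 2830, 1619 and 870 after heat. In liver it read 297, 258 and 114 in the controls and 136, 791 and 1652 after heat. The part of muscle transcripts in the ACTA1 rise was not tested. Of the 19 hepatocyte markers 7 passed the limit, with a median log2 change of 0.56 and 1.68 in muscle, with 1 called higher. Some of the 7 were high on the brain controls: TTR (10470 to 23090), APOA1 (7636 to 7803), TF (1839 to 13730) and VTN (2043 to 2209). Others were low there, such as FGA (105 to 138) and AHSG (115 to 143). The median of the 7 is therefore not a measure of hepatocyte transcripts alone. Without brain heat 1 and muscle heat 3 the median of these 7 markers was 0.07 and none was called in the limma fit. Of the skeletal muscle markers 6 passed (1 higher and 2 lower), of the neuron markers 3 (none called) and of the glia markers 9 (1 higher and 1 lower, and 1 and 3 without those arrays). In the lists of leukocytes (12 measured, 1 higher and 1 lower), red cells (4, none higher and 1 lower), fibroblasts (9, none called) and adipocytes (2, none called) few members were called in the limma fit.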

How the data were processed

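RNA of 18 samples was read on Affymetrix chicken genome arrays, 1 array per sample. The deposited values are linear intensities per probe set, made by the authors from the scanned probes. Per the submitters' processing notes GCOS 1.4 was used, with no role given, and how the authors scaled and summarised the intensities is not given in the sources used here. Array medians ran from 79.6 to 99.1 and the intensities from 1 to 28637. The intensities were used as deposited, as log2(intensity + 16), without the 96 array control probe sets. The number of arrays limits the precision.

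With limma 3.58.1 in R 4.3.3, heat was fitted with tissue as a block and an intensity trend in the moderated variance. A model of 6 group means gave the tissue effects and the F test of heat by tissue. P-values are adjusted by Benjamini-Hochberg over all 13170 probe sets tested, with 0.05 as the threshold. Adjusted p values in the text come from these limma fits. They treat the arrays of different tissues as separate samples, though some may be from the same birds, and measure the spread between these samples. The limit of 100 is set on controls, so it leaves out genes that only heat raised.

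Of the 38439 probe sets, 27168 carry 1 gene symbol, 177 several and 11094 none in the platform annotation. For lists, the probe set with the highest mean stood for a gene. Some named genes also had a measured probe set that was not called: DNAJB4 (0.18), SREBF1 (0.0063), RBPMS (-0.055), STAT3 (-0.12) and SEMA6D (0.25), beside those given in the text. Members, lists and named genes were chosen with earlier results of these data known. The genes named with values are the 12 largest rises and falls, up to 15 per direction with the smallest p among probe sets separated in each tissue, all measured chaperones and heat shock factors, the 3 members with the smallest p of each other list, up to 4 per direction with the smallest interaction p, and the probe sets next to the limit. Further list members, HSPH1 and SRSF5A were named after their values were seen.

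The replicate numbers did not pair heat with control: within a tissue the deviations of same-numbered arrays from their group means correlated above 0 in 2 of 9 pairs (-0.47 to 0.37). Between tissues of 1 condition they did so in 9 of 9 control pairs (0.033 to 0.53) and 7 of 9 heat pairs (-0.12 to 0.37), so random blocks and 3 against 3 means were run as alternatives, beside other scalings, limits, models and sets of arrays. The fits were tested on simulated data.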

Additional observations from a re-analysis of the deposited data

Results flagged for a closer look

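The heat effect of some named genes differed between tissues by the limma interaction test (Benjamini-Hochberg adjusted p over 13170 probe sets), so their pooled values average unlike tissues. Among the chaperones these were HSPB9 (adjusted p 0.0024 and 0.0097 on its probe sets), DNAJA4 (0.0043) and HSPA2 (0.019), each with the smallest difference in muscle. For DNAJA4 the muscle effect minus that of brain was -1.33 on the log2 scale (adjusted p 0.00927).

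In cholesterol synthesis HSD17B7 (0.024 and 0.0041 on its probe sets), FDPS (0.015) and SQLE (0.025) differed, with a liver effect minus that of brain of -2.01 (the 0.024 probe set), -1.71 and -2.66 on the log2 scale. In DNA replication MCM3 (0.0097), MCM2 (0.017) and TK1 (0.0043) did, with liver minus brain at -1.15, -1.03 and -1.34. The clock repressor BHLHE41 (0.0041) and the apoptosis inhibitor BCL2L1 (0.042) also had their largest fall in liver.

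The rises of MPC1L (0.02), PCMTD1 (0.047), HDAC4, a histone deacetylase (0.0043), SEMA6D, a semaphorin (0.0042), and ECI2, of fatty acid oxidation (0.0062), were largest in liver, where the effect of HDAC4 was 1.14 above that of brain and that of SEMA6D 1.28 above it. IRS4 (0.0088) was 1.33 higher in liver than in brain and 1.36 higher in muscle than in brain, as differences of the heat effect. Differences that involve muscle were found in ASB2 (1.1e-06), ANKRD9 (0.0042), SLC2A1 (0.048) and SRF (0.0059). The liver effect minus that of muscle was -3.14 for ASB2, -1.79 for ANKRD9 and 0.943 for SLC2A1, and for SRF the muscle effect minus that of brain was -1.3.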

How the results depend on the processing

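No called probe set changed sign under any alternative that was run. The pooled counts of 2473 higher and 2443 lower moved to 2212 and 2961 with quantile normalization within tissues and to 2089 and 2742 with equal array medians, where the median of all probe sets shifted by -0.033 and -0.0233. Without the limit on low values 3862 were higher, with 1 probe set per gene 1395 and 1509, without liver 1037 and 1515, and without brain 1449 were lower. Leaving out each array in turn gave 2104 to 2654 higher and 2131 to 2637 lower. The count separated in each tissue moved, for higher, from 447 to 281 with equal medians, 676 without the limit, 256 with 1 probe set per gene, 829 without brain and 1224 without muscle, and for lower, from 467 to 809 without brain, 832 without liver and 1006 without muscle, where fewer tissues have to be separated. The 267 interaction calls were the least stable: 1791 with array weights, 2226 at an unadjusted p under 0.05, 431 without brain heat 1 and muscle heat 3, and 109 (without brain heat 2) to 511 (without brain heat 1) when each array was left out. The cause was not tested. Separation counts were not run with arrays left out, and promoter motifs were not run.

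In the pairing alternatives, the replicate block gave 2426 higher and 2352 lower and kept 95.4% of the calls, with FASN (adjusted p 0.0582) and HSPB1 (0.056) lost and HSF4 called (0.0436) among the named genes. With arrays of 1 condition and replicate number as a random block (correlation 0.0487) 2268 and 2217 were called, with 91.2% kept, and the 3 against 3 means over tissues called 1783 and 1693, with 69% kept. Without brain heat 1 and muscle heat 3 the counts were 2246 and 2295. The least stable named calls were FASN, HSPB1, HSPA14 and FGA, which held in 3, 10, 11 and 11 of 18 fits that left out 1 array.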

Other observations

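The limit on control intensity leaves out transcripts that reach 100 in each tissue only after heat. There were 949 such probe sets, and 620 that reached it only in the controls. HSPH1, an HSP110 chaperone, was among the former. HSPH1 read 334, 528 and 402 on the brain controls and 1155, 1133 and 1068 after heat, 146, 105 and 62.7 against 684, 343 and 324 in liver, and 109, 127 and 45.3 against 864, 587 and 754 in muscle. The heated arrays were above the controls in each tissue, with a pooled log2 change of 2.06. Probe sets of this group reach 100 in some tissue only after heat, so a rise there is built into the choice. No test of them is therefore given. HSPH1 was chosen after its values were seen. SRSF5A, a splicing factor of the same group, read 38.3 to 54.1 on the brain controls and 133 to 175 after heat. In liver SRSF5A read 47.7 to 62.7 against 81.1 to 200, and in muscle 39.5 to 85.2 against 110.5 to 140.6. Its log2 change was 1.14. It was separated in each tissue as well.

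The same 949 also hold transcripts of other tissues with large pooled log2 values (probe set with the highest mean), such as the liver proteins ALB (2.35), FGG (2.24) and FGB (1.98), the neuronal SNAP25 (1.23) and the muscle MYL1 (1.43). ALB read 13260, 756 and 1099 on the heated brain arrays and 54.1 to 65.7 on the brain controls. Brain heat 1 and muscle heat 3, which hold the most hepatocyte transcripts, were left out together, and liver heat 3, the array of another tissue with the most muscle markers, was left out only by itself. Beyond that, the part of these transcripts in other pooled values was not tested.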
